A study of Mus musculus with 8 samples.

Results

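The interleukin-6 (IL-6) family was examined in the hearts of mice with myocardial infarction (MI). The group held 10 genes, of which 6 encode ligands (Il6, Il11, Lif, Osm, Clcf1 and Ctf1) and 4 encode receptor chains (Il6st, Il6ra, Osmr and Lifr), among 20145 genes that could be named on the array. Each gene was read from the brightest probe that was designed on a RefSeq transcript of it and that the scanner software marked as well above background on 4 or more of the 8 arrays. Such a probe was found for 10 of 10 genes, and no difference between MI and sham mice entered the choice of probe. The genes themselves were chosen with earlier results of these data known, so their counts below are descriptions.

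All 8 animals were adult male mice of the C57BL\6 background without a transgene named in the labels, and their age in weeks was not given in the sources used here. Surgery was done under isoflurane, and the study describes an FDG-PET scan of the heart in every animal at 24 hours, for which Acipimox, a drug that lowers circulating fatty acids, and the tracer were injected, so that both groups share these agents. The 4 MI mice had undergone permanent occlusion of the anterior interventricular artery, a ligation that blocks the blood supply of the anterior left ventricle, and the 4 sham mice had undergone a sham operation. Tissue was taken 24 hours after surgery. The labels call the tissue ventricles of the heart, while the study's methods state that the heart was excised and homogenized. Infarcted and remote muscle were thus mixed in the RNA of each MI mouse. Each mouse was measured on 1 array of the SurePrint G3 8x60K type in 1 colour, and values below are normalized signals on the log2 scale, where a difference of 1 is a 2-fold change. A probe's signal also depends on its sequence, so levels were compared between mice and not between genes.

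IL-6 family cytokines act through receptor complexes that share the signal-transducing chain gp130, the product of Il6st. IL-6 and IL-11 first bind a private receptor chain of their own and then pair gp130 with itself, whereas leukemia inhibitory factor (LIF), oncostatin M, cardiotrophin-1 and cardiotrophin-like cytokine factor 1 bring gp130 together with the LIF receptor chain or, for oncostatin M, the oncostatin M receptor chain. The joined chains activate JAK kinases, which phosphorylate STAT3, and STAT3 in turn switches on the feedback inhibitor Socs3 among many genes. This pathway is known for the acute-phase response and, in the heart, for survival and growth signals in cardiomyocytes.

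Across the whole array, 34038 probes were retained, and an array had 58.6% to 66.4% of its spots well above background. Calls needed more than a 2-fold difference together with an adjusted p under 0.05 in limma. By this rule 1046 probes (3.07%) were higher and 138 probes (0.405%) were lower in MI mice. Markers of ventricular cardiomyocytes were present at similar summed levels in both groups, from 21.0 to 21.6 in MI mice against 21.2 to 21.7 in sham mice on the log2 scale. The 3 atrial muscle markers (Myl7, Myl4 and Sln) were also present, with summed levels from 15.9 to 17.6 in 7 mice and 12.1 in sham replicate 4, which stood apart in this respect. Results for the IL-6 family are therefore also given without that mouse where they move.

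To place the genes that changed and those that did not beside their regulatory sequence, the 250 bases before the transcription start are shown for Il6, Il11, Lif and Osmr, whose signals were higher in MI mice, and for Ctf1, whose signal was not. The sequences are those of RefSeq on GRCm38.p6, read 5′ to 3′ on the strand of the gene, and capitals mark matches to any of 4 motifs: STAT (TTCNNNGAA), AP-1 (TGANTCA), NF-kB (GGG and TTTCC with 2 bases between them) and C/EBP (TTNNGCAA).
Il6, chr5:30012864-30013113, plus strand: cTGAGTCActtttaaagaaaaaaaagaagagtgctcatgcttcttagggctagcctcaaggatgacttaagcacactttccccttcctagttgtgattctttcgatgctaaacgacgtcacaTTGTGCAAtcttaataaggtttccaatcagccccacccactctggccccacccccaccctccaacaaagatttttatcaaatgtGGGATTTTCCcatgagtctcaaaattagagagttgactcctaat
Il11, chr7:4778142-4778391, minus strand: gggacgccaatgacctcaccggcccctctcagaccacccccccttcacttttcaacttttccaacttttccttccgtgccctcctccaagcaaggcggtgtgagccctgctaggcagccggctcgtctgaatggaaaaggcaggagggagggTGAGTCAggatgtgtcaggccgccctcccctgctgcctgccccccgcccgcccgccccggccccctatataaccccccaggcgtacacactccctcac
Lif, chr11:4257318-4257567, plus strand: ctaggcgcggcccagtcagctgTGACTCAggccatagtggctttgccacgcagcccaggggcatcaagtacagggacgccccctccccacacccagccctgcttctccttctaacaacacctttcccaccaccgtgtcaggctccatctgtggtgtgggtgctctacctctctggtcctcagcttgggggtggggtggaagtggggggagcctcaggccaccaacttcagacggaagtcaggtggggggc
Osmr, chr15:6874314-6874563, minus strand: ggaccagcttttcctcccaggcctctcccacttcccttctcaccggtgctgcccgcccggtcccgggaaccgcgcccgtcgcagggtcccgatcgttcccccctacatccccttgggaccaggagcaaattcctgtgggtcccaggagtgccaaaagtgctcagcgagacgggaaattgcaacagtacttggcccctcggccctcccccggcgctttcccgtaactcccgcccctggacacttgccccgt
Ctf1, chr7:127712453-127712702, plus strand: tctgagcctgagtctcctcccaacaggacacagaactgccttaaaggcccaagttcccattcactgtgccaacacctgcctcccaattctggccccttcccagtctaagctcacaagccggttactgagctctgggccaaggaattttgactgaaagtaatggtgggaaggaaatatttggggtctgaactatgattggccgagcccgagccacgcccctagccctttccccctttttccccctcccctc

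Both strands were searched, and no match overlapped another. The Il6 window held an NF-kB match (GGGATTTTCC) beginning 44 bases before the start, a C/EBP match (TTGTGCAA) 128 bases before it and an AP-1 match 249 bases before it. The Il11 window held an AP-1 match 98 bases before the start, and the Lif window held an AP-1 match 228 bases before the start. No match was found in the Osmr and Ctf1 windows, nor in the second Il11 window and the windows of Il6ra, Il6st and Lifr, which are not shown. Over 32851 promoter windows of the same length, 1.41% held the NF-kB letters, 9.56% the C/EBP letters, 6.75% the AP-1 letters and 7.02% the STAT letters. A window was matched for 8 of the 10 genes, and those of Osm and Clcf1 were not analysed here. A match is a run of letters and not a measured binding site. Osm and Lif are next to each other on chromosome 11, and Osmr and Lifr on chromosome 15, with 0 annotated protein-coding genes between the members of either pair.

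The first question was which ligands and receptor chains were altered 24 hours after ligation. Of the 10 genes, 4 ligands rose past 2-fold (Il6, Il11, Clcf1 and Osm) and 0 genes fell, against 3.07% and 0.405% of all retained probes. At an adjusted p under 0.05 without a fold threshold, 6 genes were higher and 0 were lower, against 6.3% and 1.31% of probes. SAM also called 4 genes past 2-fold and 0 lower, against 1030 probes higher and 133 lower of 33865. At an unadjusted p under 0.05 in limma 7 genes were higher and 1 was lower. The share of all probes at that unadjusted p is not given here, so these 2 counts have no background beside them. In 5 genes (Il6, Il11, Clcf1, Osm and Osmr) the 4 MI mice all lay above the 4 sham mice, which was the case for 8.46% of probes. The median log2 difference was 0.89 over the 10 genes and 0.12 over all retained probes. The smallest p that an exact two-sided permutation test of 4 against 4 mice can give is 0.0286, and this was the p of each of these 5 genes.

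**Figure D1:**
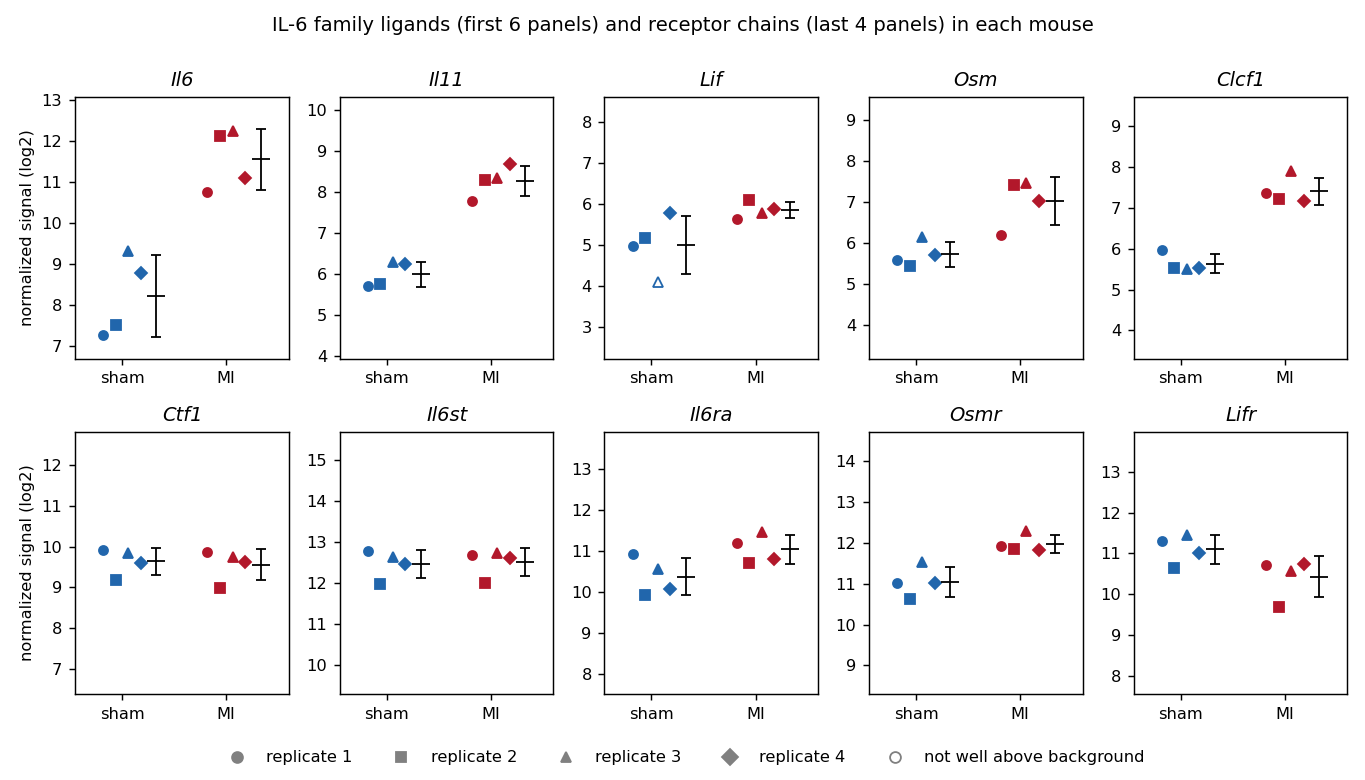
Normalized log2 signal of the 6 ligands and the 4 receptor chains in each of 4 sham (blue) and 4 MI (red) mice. Symbols give the replicate number, bars the mean ± SD (n = 4), the open symbol a spot that was not well above background, and every panel spans the same log2 range. MI mice lie above all sham mice for Il6, Il11, Osm, Clcf1 and Osmr, while the groups of Ctf1 and Il6st overlap nearly fully.

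Il6, the cytokine that gives the family its name and a main inducer of the acute-phase response, showed the largest difference of the 10 genes. Its log2 signal was 10.76, 12.13, 12.25 and 11.10 in MI mice against 7.26, 7.50, 9.32 and 8.78 in sham mice. The lowest MI mouse was thus above the highest sham mouse, but Il6 also spread more within the groups than the other 9 genes, with an SD of 0.74 in MI mice against 0.99 in sham mice (n = 4 each). Il6 was 10.2-fold higher in MI mice, with a 95% confidence interval from 6.10-fold to 16.9-fold (log2 difference 3.35, SE 0.36, adjusted p = 2.3e-07). In whole-tissue RNA of this kind, a change in the number of cells that make a transcript and a change in the transcript per cell cannot be told apart.

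Il11, a cytokine that is best known for its actions on blood cell precursors and on fibroblasts, also rose. Its log2 signal was 7.77, 8.28, 8.35 and 8.68 in MI mice against 5.70, 5.74, 6.28 and 6.23 in sham mice. The groups were far apart relative to their spread, and Il11 was 4.88-fold higher in MI mice (log2 difference 2.29, SE 0.23, adjusted p = 7.2e-08). The mean processed intensity was 329 in MI mice against 48.0 in sham mice, and all 8 spots were well above background.

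Clcf1, which encodes cardiotrophin-like cytokine factor 1, a ligand known for its actions on neurons and B cells, was measured at 7.35, 7.20, 7.89 and 7.16 in MI mice against 5.97, 5.52, 5.50 and 5.52 in sham mice. Each MI mouse was above each sham mouse. The difference was 3.42-fold (log2 difference 1.77, SE 0.22, adjusted p = 2.3e-06).

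Osm, which encodes oncostatin M, a cytokine made mainly by neutrophils and macrophages, was measured at 6.20, 7.43, 7.46 and 7.02 in MI mice against 5.59, 5.45, 6.16 and 5.72 in sham mice. MI replicate 1 exceeded the highest sham mouse by little, and the other 3 MI mice were clearly above it. Osm was 2.46-fold higher in MI mice (log2 difference 1.30, SE 0.25, adjusted p = 0.00103). Under a refit of the variance-stabilizing model, which adds constants larger than the sham signals of these probes, the log2 differences of Il11 (0.97), Clcf1 (0.57) and Osm (0.41) were below 1, and the Osm difference had an adjusted p of 0.105. Of the 4 called genes only Il6 remained past 2-fold under that refit (log2 difference 2.67).

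Lif, which encodes leukemia inhibitory factor, was the dimmest of the 10 probes, with a mean processed intensity of 48.8 in MI mice against 21.7 in sham mice. Its log2 signal was 5.63, 6.10, 5.78 and 5.88 in MI mice against 4.97, 5.17, 4.08 and 5.77 in sham mice, and the value of sham replicate 3 was not well above background. The groups overlapped, since sham replicate 4 lay above MI replicate 1. Lif was 1.80-fold higher in MI mice (log2 difference 0.85, SE 0.26, adjusted p = 0.0445), which is not past 2-fold, and the exact permutation p was 0.0571. Without sham replicate 3 the log2 difference was 0.55 (adjusted p = 0.199), and without sham replicate 4 it was 1.11 (adjusted p = 0.00257), which is past 2-fold.

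Ctf1, which encodes cardiotrophin-1, a ligand first known for inducing growth of cardiomyocytes, did not pass the test. Its log2 signal was 9.87, 8.997, 9.75 and 9.61 in MI mice against 9.91, 9.19, 9.85 and 9.61 in sham mice, a nearly full overlap. The log2 difference was -0.08, with a 95% confidence interval from -0.55 to 0.39 (adjusted p = 0.891), so that a 2-fold change in either direction lay outside the interval. The probe was spotted 10 times on each array, and the mean of its spots was used.

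Among the receptor chains the second question was whether the signal-transducing chain and the ligand-binding chains moved together. Il6st, which encodes gp130, was at 12.68, 12.001, 12.74 and 12.61 in MI mice against 12.78, 11.98, 12.64 and 12.47 in sham mice. The groups overlapped nearly fully. The log2 difference was 0.04, with a 95% confidence interval from -0.43 to 0.51 (adjusted p = 0.949), and it was negative under 3 other normalizations between arrays.

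Osmr, which encodes the chain that joins gp130 to bind oncostatin M, was at 11.91, 11.85, 12.29 and 11.82 in MI mice against 11.01, 10.62, 11.53 and 11.01 in sham mice. The lowest MI mouse was above the highest sham mouse. Osmr rose 1.90-fold, short of the 2-fold threshold (log2 difference 0.92, 95% confidence interval 0.47 to 1.38, adjusted p = 0.00755). With no filter on detection its adjusted p was 0.0870.

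Il6ra, which encodes the IL-6-binding chain that can also be shed and act in soluble form, was at 11.20, 10.70, 11.47 and 10.80 in MI mice against 10.93, 9.93, 10.55 and 10.08 in sham mice. Sham replicate 1 lay above MI replicates 2 and 4, so the groups overlapped. The log2 difference was 0.67 (95% confidence interval 0.18 to 1.16) and did not pass the test over all probes (adjusted p = 0.0921, exact permutation p = 0.0857). Without sham replicate 1 it was 0.85 (adjusted p = 0.0253). With quantile normalization the log2 difference of Il6ra was 0.58 (adjusted p = 0.0456).

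Lifr, which encodes the LIF receptor chain, had a lower mean in MI mice with each of its 3 probes. Its brightest probe was at 10.72, 9.70, 10.58 and 10.75 in MI mice against 11.29, 10.65, 11.44 and 11.01 in sham mice, and sham replicate 2 lay below MI replicates 1 and 4. The log2 difference was -0.66, with a 95% confidence interval from -1.16 to -0.16, and did not pass the test over all probes (adjusted p = 0.104, exact permutation p = 0.0857). The 2 other Lifr probes differed by -0.24 (adjusted p = 0.597) and -0.12 (adjusted p = 0.816), so the 3 probes disagreed in size. Whether the adjusted p of Lifr was under 0.05 depended on the scaling of the arrays. It was 0.00799 with the 75th percentile of each array (log2 difference -0.79) and 0.00971 with quantile normalization (-0.76). Lifr was not called by the 2-fold rule in either case, and was past it under 0 of 21 alternatives. The median difference of all probes fell by 0.14 under either scaling.

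**Figure D2:**
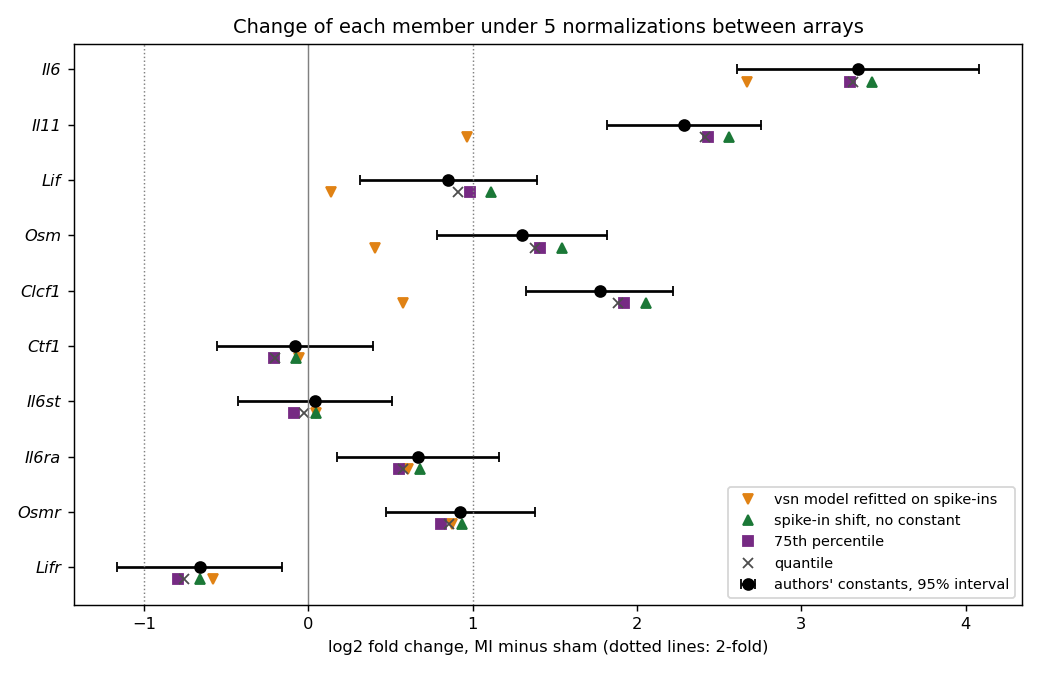
Log2 fold change of each gene, MI minus sham (n = 4 each), with the authors' additive constants (black circles, bars are 95% confidence intervals from limma) and under 4 other normalizations between arrays (coloured symbols and crosses). Il6 stays above 2-fold under all 5, whereas Il11, Clcf1 and Osm fall below the dotted 2-fold line under the refitted vsn model, and Il6st and Ctf1 stay near 0.

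Since the arrays differed in overall level, each gene was also set against Il6st on the same array, which removes any scale shared by both probes. This comparison was chosen after the values were seen, and 9 genes were compared. The share of all probes whose groups do not overlap in such a ratio is not given here. Non-overlap in it therefore has no background beside it. After adjustment over the 9 genes, an exact permutation p of 0.0286 became 0.0367. Values are log2 ratios to Il6st centred on the sham mean. Relative to Il6st, Lifr was at -0.60, -0.93, -0.79 and -0.49 in MI mice against -0.11, 0.03, 0.17 and -0.09 in sham mice, with no overlap (exact permutation p = 0.0286). The second Lifr probe differed by -0.28 relative to Il6st, with no overlap, and the third by -0.16 with overlapping groups (exact permutation p = 0.171).

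Il6ra relative to Il6st was at 0.61, 0.79, 0.83 and 0.29 in MI mice against -0.30 to 0.25 in sham mice, so that these groups did not overlap either, although MI replicate 4 and sham replicate 1 were close. Osmr relative to Il6st was at 0.65, 1.28, 0.98 and 0.63 in MI mice against -0.34 to 0.31 in sham mice. Each of these 2 genes had an exact permutation p of 0.0286. Lif (p = 0.257) and Ctf1 (p = 0.0857) overlapped between the groups in the same exact permutation test. The groups of Osm did not overlap (exact permutation p = 0.0286), but they nearly touched. MI replicate 1 stood at 0.2566 and sham replicate 3 at 0.2558.

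**Figure D3:**
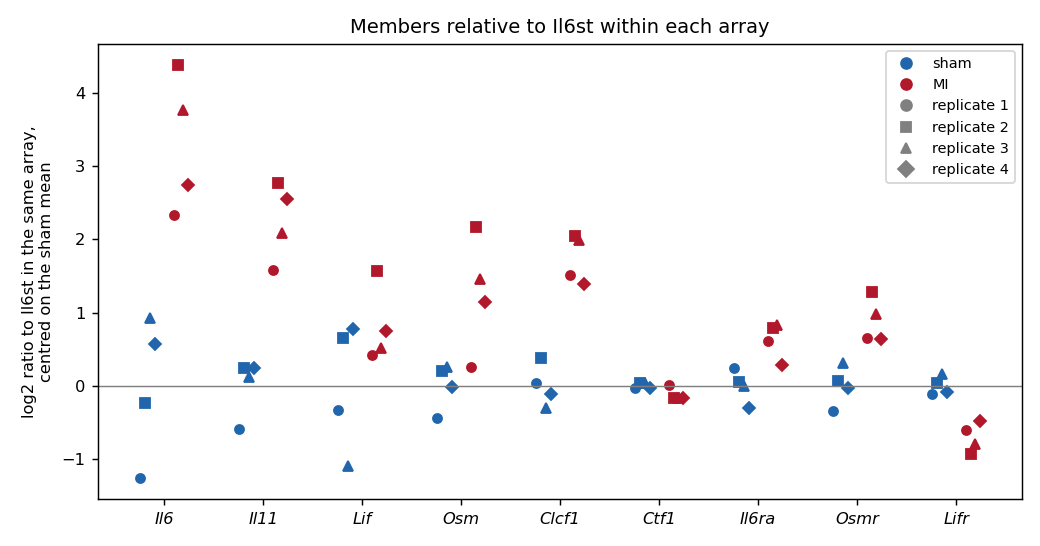
Log2 ratio of 9 genes to Il6st on the same array, centred on the mean of the 4 sham mice (blue) and shown for each of the 4 MI mice (red), with symbols for the replicate number. Lifr lies below 0 in all 4 MI mice, from -0.93 to -0.49, and Osmr lies above 0 in all 4, from 0.63 to 1.28.

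The mice did not differ in the same order for all genes. MI replicate 3 was the highest MI mouse in 6 of the 10 genes, and MI replicates 1 and 2 were each the lowest in 4 genes. Among sham mice, replicate 2 was the lowest in 6 genes, and replicates 3 and 1 were the highest in 5 and 4 genes. Sham replicate 2 and MI replicate 2 also had the lowest median signal of all retained probes in their groups, 7.38 and 7.42 on the log2 scale, while the lowest of the other 6 mice was at 7.57. For Ctf1, Il6st, Il6ra and Lifr, MI replicate 2 was the lowest MI mouse, whereas for Il6, Lif, Osm and Il11 the lowest MI mouse was MI replicate 1.

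The third question was which other parts of the pathway were altered. Of 10 further ligands and receptor chains of the gp130 group, 9 could be measured. Against 3.07% of all retained probes, 1 of these 9 rose past 2-fold. This was Cntf, which encodes ciliary neurotrophic factor, at 9.08 to 9.38 in MI mice against 7.05 to 8.67 in sham mice (2.42-fold, log2 difference 1.28, adjusted p = 0.0014). At any fold, Ebi3, a subunit of IL-27, was 1.68-fold higher (adjusted p = 0.0181) and was named after its value was seen. Il11ra1, which encodes the private receptor chain of IL-11, differed by -0.31 (adjusted p = 0.467) and was likewise named after its value was seen. The median log2 difference of these 9 genes was 0.27.

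Of the 11 JAK kinases, STAT factors and adaptors, 0 passed the test at any fold in limma and 0 in significance analysis of microarrays (SAM), and their median log2 difference was -0.01. At an unadjusted p under 0.05 in limma 1 was higher and 0 were lower. The 3 with the smallest adjusted p were Stat3 (log2 difference 0.54, adjusted p = 0.160), Stat5b (-0.38, adjusted p = 0.382) and Jak2 (0.34, adjusted p = 0.400). These kinases and factors are activated by phosphorylation, which the array does not measure.

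Of 10 inhibitors and shedding proteases, 9 were measured and 3 rose past 2-fold, against 3.07% of all retained probes. Socs3, the feedback inhibitor that binds gp130, was at 12.79 to 13.39 in MI mice against 10.63 to 11.47 in sham mice and rose 4.43-fold (log2 difference 2.15, adjusted p = 1.5e-07). Socs1, an inhibitor of JAK kinases, rose 2.80-fold and Ptpn6, which encodes a phosphatase found mainly in blood cells, rose 2.55-fold. The shedding proteases Adam10 and Adam17, named after their values were seen, differed by -0.09 and -0.05.

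Of 20 known STAT3 targets, 8 rose past 2-fold and 0 fell (against 3.07% and 0.405% of probes), with a median log2 difference of 0.71. In order of size these were Il4ra (2.82-fold), a receptor chain for interleukin-4, Hp (2.59-fold), which encodes the acute-phase protein haptoglobin, Timp1 (2.47-fold), an inhibitor of metalloproteinases, and Bcl3 (2.36-fold), a modulator of NF-kB. Myc (2.35-fold) and Junb (2.23-fold) encode transcription factors of the early response, Pim1 (2.22-fold) a survival kinase, and Saa3 (2.17-fold) an acute-phase protein. At any fold 10 of the 20 were higher, against 6.3% of probes. Many of these genes also answer to other signals, so their count is a description of the list. In total 12 of the 49 further pathway genes that were measured were past 2-fold.

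**Figure D4:**
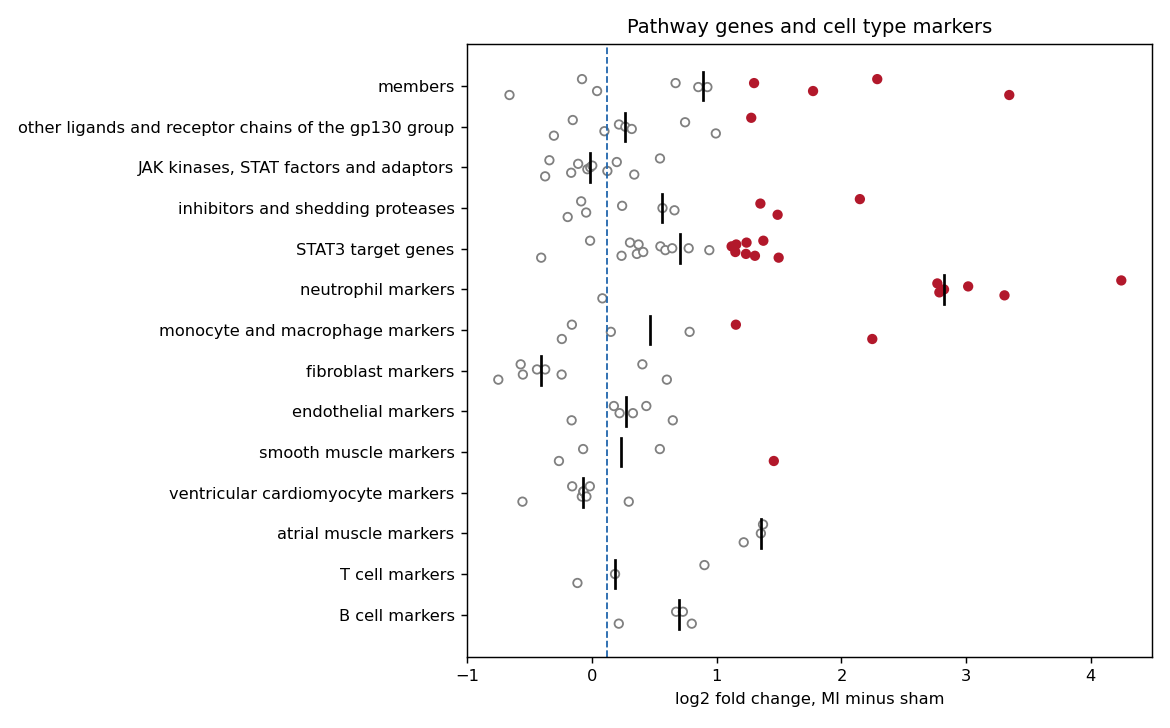
Log2 fold change, MI minus sham (n = 4 each), of every measured gene of the IL-6 family, of 4 pathway lists and of 9 cell type marker lists. Red points passed 2-fold with an adjusted p under 0.05, open points did not, black bars are list medians, and the dashed line is the median of all retained probes at 0.12. The list with the highest median is that of the neutrophil markers at 2.82.

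Markers of some cell types, but not of others, also differed between MI and sham mice. Of 8 neutrophil markers, 7 were measured and 6 rose past 2-fold, against 3.07% of all retained probes. Among the 6 was Ngp, named after its value was seen, which was well above background on only 4 arrays, the fewest the filter accepts. Its log2 signal was 4.84 to 7.42 in MI mice against 2.98 to 4.35 in sham mice. A probe like this can pass the filter through the group where it is high, so its rise adds little to the count. The 7 markers had a median log2 difference of 2.82. They ranged from 0.08 for Csf3r, named after its value was seen, to 4.24 for Retnlg, with Cxcr2 at 3.31. Their summed level was 17.6 to 18.3 in MI mice against 15.9 to 16.3 in sham mice on the log2 scale, and no probe was named Ly6g through its RefSeq transcript. Of 8 monocyte and macrophage markers, 6 were measured and 2 rose, Cd14 (2.25) and Ccr2 (1.15), with a range of -0.24 to 2.25 and summed levels of 13.9 to 14.4 in MI mice against 13.4 to 14.1 in sham mice. Of the defining markers of that list, no probe was named Cd68 or Ly6c2 through its RefSeq transcript, so they were not analysed here. The part of these cells in the rise of Il6, Il11, Clcf1, Osm, Osmr and Socs3 was not tested.

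Markers of resident cell types and lymphocytes were read in the same way. In limma, 0 of 8 fibroblast markers passed 2-fold (median -0.41, from -0.75 for Col3a1 to 0.60 for Postn), as did 0 of 6 endothelial markers (median 0.27, -0.16 to 0.65, with Pecam1 at 0.65 and Emcn at 0.43) and 0 of 8 ventricular cardiomyocyte markers (median -0.07, -0.56 to 0.29, with Pln at -0.56 and Actc1 at 0.29). SAM likewise called 0 past 2-fold in these 3 lists and, at any fold, 1 fibroblast marker higher, while at an unadjusted p under 0.05 in limma 1 fibroblast marker was higher and 2 were lower, 2 endothelial markers were higher and 1 cardiomyocyte marker was lower. Summed fibroblast markers reached 15.5 to 16.8 in MI mice against 16.4 to 17.1 in sham mice, and their part in the lower Lifr signal was not tested. Of 4 smooth muscle markers, 1 rose, Acta2 (log2 difference 1.46, with Cnn1 at 0.54, range -0.27 to 1.46 and median 0.24). The 3 atrial markers differed by 1.22 to 1.37 (median 1.35, largest Myl4 and Myl7) without passing the test, and without sham replicate 4 the 4 called genes of the IL-6 family were still past 2-fold. Of 5 T cell markers 3 were measured (median 0.18, from -0.12 to 0.90, with Cd3d at 0.90 and Cd4 at 0.18) and of 4 B cell markers 4 were measured (median 0.70, 0.21 to 0.80, with Ms4a1 at 0.80 and Cd79b at 0.73), and 0 of them passed 2-fold in limma or in SAM. At any fold Cd3d (1.87-fold, adjusted p = 0.00598) and Cd79b (1.66-fold, adjusted p = 0.0321) were higher in limma, and SAM called 1 marker higher in each of these 2 lists. At an unadjusted p under 0.05 in limma, 1 of the 3 atrial, 1 of the 3 T cell and 3 of the 4 B cell markers were higher.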

How the data were processed

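Cardiac RNA taken 24 hours after surgery was measured in 4 mice per group, with 1 array per mouse on 1 slide scanned once, and the number of arrays limits the precision. Groups were taken from the labels, and the 8 mice are separate animals. The intensities deposited by the authors are the processed signals that Feature Extraction 11.0.1.1 wrote, in which the local background was subtracted within each array, and the median intensity of each spot was also used. The log2 values of the authors were normalized between arrays with spike-in probes by limma and vsn, after spots not well above background were removed. Their scale and additive constant for each array, found by setting those log2 values against the intensities, were applied here to all spots without outlier flags, since the constants (3.16 to 19.6) are smaller than those of a refit of the model on 234 spots of 7 spike-in probes (166 to 256), which exceed the sham signals of the dim cytokine probes. Spots of a probe were averaged. Control probes were removed, as were probes that passed the background flag on fewer than 4 arrays, and 34038 of 55681 probes were retained. Probes were named through RefSeq transcripts, which gave 26582 probes a symbol.

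MI and sham mice were compared in limma 3.58.1 (R 4.3.3) without covariates, with Benjamini-Hochberg adjustment over all retained probes. A call needed a fold change over 2 and an adjusted p under 0.05. For single values an exact two-sided permutation test over the mice was added. The methods' SAM was programmed here with all 70 label splits. The limma and SAM steps were tested on simulated data. Alternatives were other normalizations, among them normexp with an offset of 50 on median intensities because mean intensities were not used here, other filters, the authors' values, the mean over probes of a gene, the slide row and the replicate number as blocks, each slide row by itself, and leaving out each mouse. Other computations used Python 3.11.15, numpy 2.4.6, scipy 1.17.1 and pandas 2.3.3.

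The genes of the family and all lists were chosen with earlier results of these data known. The text names every gene of the family, in each pathway list those past 2-fold or otherwise the 3 with the smallest adjusted p, and in each cell type list the 2 with the largest absolute fold. Other genes are said to be named after their values were seen.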

Additional observations from a re-analysis of the deposited data

Results flagged for a closer look

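Values that stood apart within a group were looked for in 58 groups of 4 mice, covering 29 genes, by the gap of the highest or lowest mouse to its neighbour relative to the range of the group (Dixon's critical value 0.829, which chance passes in about 1 group in 20). There were 3 such values. Clcf1 was at 5.97 in sham replicate 1 and between 5.50 and 5.53 in the other 3 sham-operated mice, a gap of 0.941 of the range. Lifr was at 9.70 in MI replicate 2 and between 10.58 and 10.75 in the other 3 MI mice (0.836 of the range), and without that mouse the log2 difference of Lifr was -0.42 (adjusted p = 0.224). Cntf was at 9.38 in MI replicate 3 and between 9.08 and 9.11 in the other 3 MI mice (0.882 of the range).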

How the results depend on the processing

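The count of genes of the family past 2-fold was 4 and ranged from 4 to 5 when each mouse was left out in turn, and the count at any fold was 6 and ranged from 5 to 7. For the other pathway genes the count was 12 and ranged from 11 to 14. Under the refitted vsn model the family and pathway counts past 2-fold were 1 and 6, and with normexp they were 3 and 7. At any fold the family count was 4 under the refit and 4 with no filter on detection. It was 7 with quantile normalization and 7 with normexp. In these 2 settings Il6ra passed (adjusted p = 0.0456 and 0.0158), as did Lifr, which was lower in MI mice (0.0097 and 0.0030). Lif did not pass in them (0.175 and 0.238). Over all probes, the refit called 333, normexp 539 and the shift by spike-ins 1520, against 1184 as reported. The refit adds larger constants, which hold back dim probes by construction. Higher calls were 88.3% of all calls as reported, 72.2% with the 75th percentile (401 of 1444 lower) and 69.0% with quantile normalization (438 of 1413 lower). Il6 was past 2-fold under 21 of 21 alternatives with all or 7 mice (log2 difference 2.67 to 3.71) and differed by 4.06 and 2.63 within the 2 slide rows. Osm was at 0.76 with normexp, and at 1.30 within slide row 1 (adjusted p = 0.0682). Osmr was at 1.09 without sham replicate 3. Lif had an adjusted p under 0.05 in 4 of 20 alternatives, with a range from 0.00257 to 0.342. The sign of genes near 0 turned. With each mouse left out in turn, Ctf1 ranged from -0.23 to 0.11, positive without MI replicate 2 or sham replicate 1, and Il6st from -0.12 to 0.21, negative without MI replicate 1, MI replicate 3 or sham replicate 2. Il6st was also at -0.085 with the 75th percentile, -0.027 with quantile normalization, -0.041 with normexp and -0.038 within slide row 1. The main test did not pair the mice by replicate number. Deviations of mice with the same number correlated at 0.238, 0.292, 0.143 and 0.0114, all of them positive. Those of mice with different numbers correlated from -0.327 to 0.226, and not every mouse correlated best with its own number. Whether mice with the same number share an effect was not tested, and the results with such a block are given next. With the replicate number as a block, 4 genes of the family were past 2-fold and 7 passed at any fold, with an adjusted p of 0.0211 for Il6ra, 0.0250 for Lifr and 0.0507 for Lif, pathway genes stayed at 12, and 4895 probes passed at any fold against 2590 without it.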
